A study of Mus musculus with 7 samples.

Results

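Genes that write, remove and supply the chemistry of DNA methylation were followed in CD4+ T cells from wild-type mice and from mice with altered Tet2 and RHOA. The set holds 10 genes picked by symbol, of 19589 in the deposited expression table, and all 10 were found there. They are the dioxygenase genes Tet1, Tet2 and Tet3, the methyltransferase genes Dnmt1, Dnmt3a and Dnmt3b, the hemimethylation reader Uhrf1, the DNA glycosylase Tdg, and the isocitrate dehydrogenases Idh1 and Idh2. The choice was made by name, not by a measured value.

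DNA methylation in mammals sits mainly on cytosines of CpG dinucleotides. Dnmt3a and Dnmt3b place the mark on unmethylated DNA, and Dnmt1 copies it to the new strand after replication, guided there by Uhrf1. TET enzymes oxidise 5-methylcytosine step by step with iron and 2-oxoglutarate, and TDG cuts out the later oxidation products for repair. Idh1 in the cytosol and Idh2 in mitochondria make 2-oxoglutarate from isocitrate. Loss of TET2, changes in DNMT3A and IDH2, and the G17V form of the small GTPase RHOA are known from angioimmunoblastic T cell lymphoma, a tumour of follicular helper T cells.

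CD4+ splenocytes of C57BL/6 mice were sorted by flow cytometry and their RNA was sequenced in 7 libraries. The 4 wild-type libraries, 1 mouse each, are WT1 to WT4, and the 3 of the Tet2-/-G17VRHOA genotype, also 1 mouse each, are labelled RT1 to RT3. Which part of Tet2 was deleted, in which cells, what drives the G17V RHOA allele and how old the mice were is not given in the labels used here. No treatment is named. The question is how expression in the second group differs from wild type.

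The values were RPKM, reads per kilobase of gene and per 1000000 reads of the library. The libraries fell into a deep and a shallow set, and each set held both genotypes. The totals behind the RPKM values, read from the size of their steps, were 18566233 to 21800352 reads in WT1, WT2 and RT1 and 105763 to 121659 reads in WT3, WT4, RT2 and RT3. For a gene of 2 kb, 1 read amounts to 0.0229 RPKM in RT1 and to 4.73 RPKM in RT2. Member genes were therefore also compared by the whole reads behind their values, per 1000000 recovered reads (RPM). WT3 and WT4 differed little beyond sampling noise (chi-square of 1.14 per degree of freedom over 2342 genes, against 3.0 for RT2 and RT3) and were kept separate, since the series counts them as 2 mice. Summed levels of 7 CD4 T cell markers, among them Cd3e and Cd4, lay between 3850 and 4360 RPM in wild type, at 3450 RPM in RT1 and at 6860 to 7280 RPM in RT2 and RT3. Of these 7 only Cd5 was called, and it was lower in RT (log2 fold change -0.97 ± 0.18, limma voom adjusted p = 0.00889). Fitted alone, each library set gave Cd5 a negative value, -1.07 for deep and -0.62 for shallow libraries. B cell markers, 8 in number and among them Ighm, Cd79a and Cd79b, summed to 13700 to 14000 RPM in WT3 and WT4. They summed to 967 to 1340 RPM in WT1 and WT2 and, in the RT libraries, to 3430 to 5940 RPM. Most of each sum was Ighm, with 9384 and 7802 reads in WT1 and WT2 and 60316 in RT1. Cd79b had 380, 502 and 569 reads in these, and Cd22 had 544, 497 and 1451. NK cell markers, 5 in number, summed to 25.2 to 52.3 RPM in wild type, 13.6 RPM in RT1, 187 RPM in RT2 and 81.3 RPM in RT3. The sums of RT2 and RT3 were Eomes alone, with 18 and 9 reads, and Klre1 and Klra8 were at 0 in every library. Dendritic cell markers, 6 in number, held 430 and 447 RPM in WT3 and WT4 against 0 and 54.2 RPM in RT2 and RT3, and 50.4 to 82.6 RPM in the deep libraries. Of the 3 tested, 2 were called lower, Flt3 (-2.87 ± 0.51) and Siglech (-5.61 ± 1.09), with limma voom adjusted p = 0.00764 and 0.0107. In that fit 8.42% of all tested genes were called lower. Itgax, the other one tested, was at 0.63 ± 0.70 (limma voom adjusted p = 0.572), with 1.04 in the deep and -4.08 in the shallow set. Red cell markers, also 6, held 1740 and 1770 RPM in WT3 and WT4, 406 and 172 RPM in RT2 and RT3 and 112 to 294 RPM in the deep libraries. Y-linked and Xist reads put WT3, WT4 and RT3 as male and the other 4 libraries as female, so sex nearly coincided with library set. In bulk samples, fewer cells of a type and less RNA per cell cannot be told apart.

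Tet3, the TET gene with the highest level per length in wild type, was lower in RT over all libraries. Tet1 was lower and Idh1 higher. All 3 calls were lost without the deep RT library, while the other 7 members passed no test over all 7 libraries. In the planned test on log2(RPKM + 1) with limma, 0 of the 8 members that passed the filter on low values were called at an adjusted p under 0.05. Over all 9605 genes that test called 0.0416% higher and 0.0104% lower. In simulated counts with these library sizes it called 0 of 100 genes changed 4-fold, so its 0 says little about the members. Tet3 was the 1 member with an unadjusted p under 0.05. Tet1 and Dnmt3b did not reach the filter of 1 RPKM in 3 libraries. In the recovered reads, tested with limma voom and a term for library set, 1 of 6 members was called lower, against 8.42% of all 5858 genes. In that fit 0 members were called higher, against 9.71%. The other 4 members had fewer than 10 reads over the shallow libraries. With the alternative filter of 10 reads over all libraries, all 10 could be fitted. Then 2 were called lower, Tet1 and Tet3, against 3.46% of 13175 genes, and 1 was called higher, Idh1, against 5.94%. In RPM the deep library RT1 lay below both deep wild-type libraries for 5 members and above both for Idh1 and Idh2, where 31.2% and 41.7% of genes did so.

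**Figure D1:**
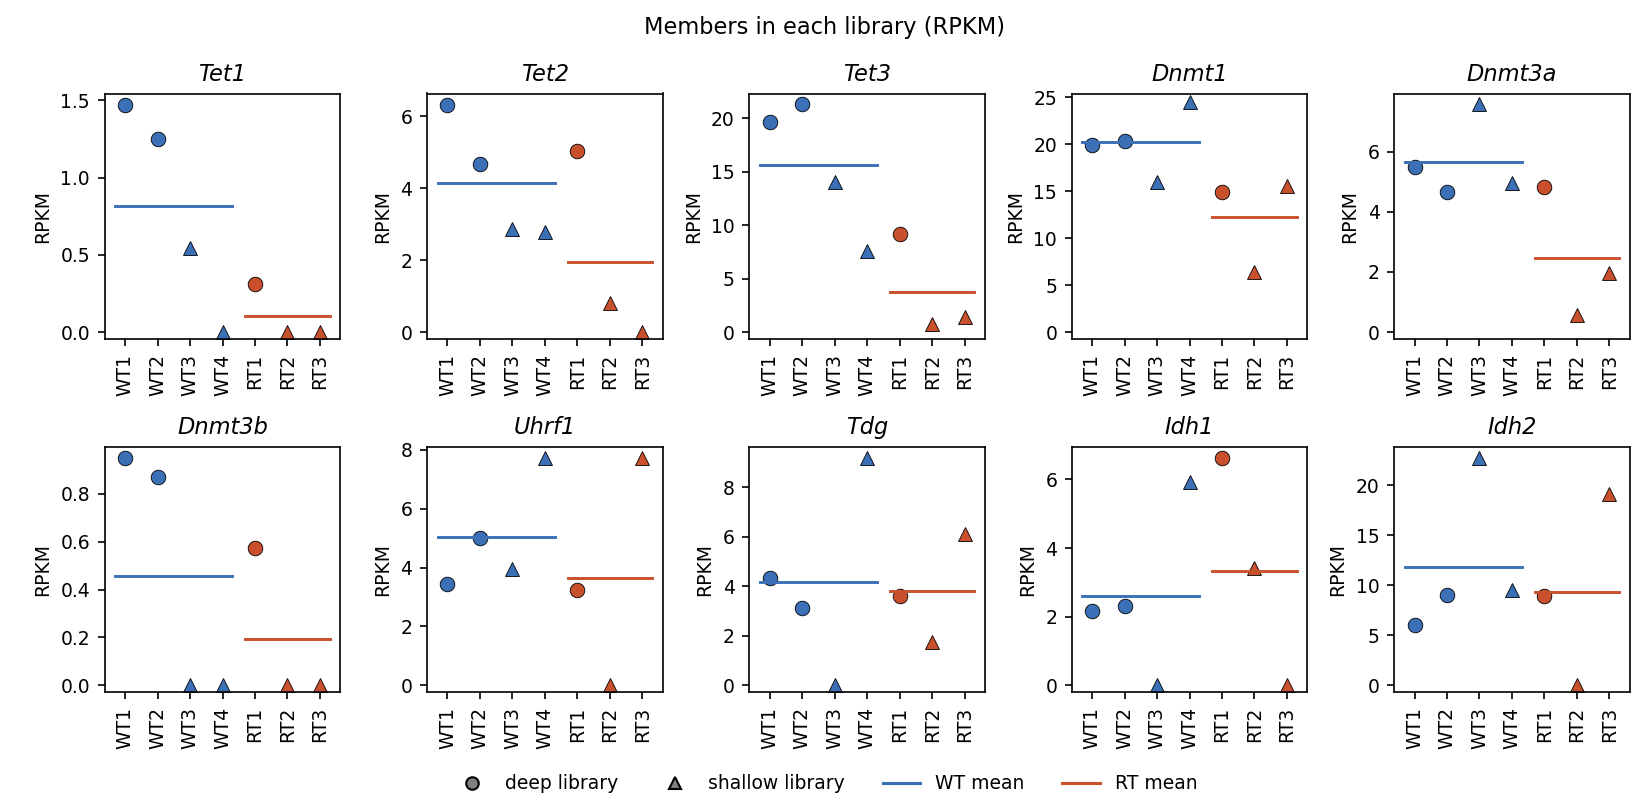
RPKM of each member (y axis) in each of the 7 libraries (x axis). Circles are deep and triangles shallow libraries, blue is WT and red is RT, and lines are group means. For Tet3 the highest RT library, at 9.2 RPKM, lies above WT4 at 7.54 RPKM and below the other WT libraries, and for Dnmt1 the groups do not overlap.

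The deleted gene comes first among the dioxygenases. Tet2 (chromosome 3, 133463679 to 133545139, minus strand, mm10) stood at 6.32, 4.68, 2.86 and 2.79 RPKM across WT1 to WT4. Across RT1 to RT3 it stood at 5.03, 0.803 and 0 RPKM. The library labelled RT1 lay between WT1 and WT2, while RT2 and RT3 lay below every wild-type library. The reads behind the deep values were 1381 in WT1, 1105 in WT2 and 1292 in RT1. WT3 and WT4 had 4 reads each, RT2 had 1 and RT3 had 0. For RT3 a count of 0 allows a level of up to 27.1 RPM, and WT3 stood at 38.2 RPM with a 95% exact Poisson interval of 10.4 to 97.8 RPM. Intervals and limits of this kind reflect counting error alone. Wild type averaged 4.16 ± 1.68 RPKM (SD, n = 4), and RT averaged 1.95 ± 2.70 RPKM (SD, n = 3). The difference of -1.16 on the log2(RPKM + 1) scale gave a two-sided exact permutation p of 0.229, where 4 against 3 libraries can reach 0.0571 at the least. The limma adjusted p was 0.662. By reads, the log2 fold change was -0.21 ± 0.30 (SE, limma voom adjusted p = 0.673), with -0.13 ± 0.30 in the deep set and -2.32 ± 0.62 in the shallow set (limma voom adjusted p = 0.843 and 0.223). Reads summed over the gene carry no position and cannot show a missing exon, so Tet2 is no check of the labels.

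Tet3 (chromosome 6, 83362373 to 83459084, minus strand) encodes a dioxygenase that overlaps Tet2 in function in T cells. Its RPKM was 19.7 in WT1, 21.3 in WT2, 14.0 in WT3 and 7.54 in WT4, and 9.2 in RT1, 0.788 in RT2 and 1.37 in RT3. Only RT1 overlapped wild type, and only with the shallow WT4. In RPM, the deep libraries held 496 RPM in WT1, 497 RPM in WT2 and 219 RPM in RT1. The level in RT1 was 44.1% of that in the pair of deep wild-type libraries (exact 95% interval 42.1% to 46.1%, counting error only). The shallow libraries held 20 and 11 reads in WT3 and WT4 against 1 and 2 in RT2 and RT3. Their pooled RT level was 9.92% of wild type, with a wide interval of 1.94% to 31.8%. Within each set every RT library was thus below every WT library. In the deep set this held for 31.2% of all genes, and the share for the shallow set is not given here.

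Over all libraries Tet3 fell, with a log2 fold change of -1.24 ± 0.18 (SE, limma voom adjusted p = 0.00324). In the deep libraries alone, 1 RT against 2 wild-type ones, the value was -1.18 ± 0.21 (limma voom adjusted p = 0.0232), where 2.2% of genes were called lower. That fit has no spread within RT, takes that of RT1 from WT1 and WT2, and adds no separate support. In the shallow libraries alone the value was -2.91 ± 0.97 (limma voom adjusted p = 0.044), where 4.63% of genes were called lower. With the filter over all libraries neither set passed alone, at -1.18 ± 0.13 (limma voom adjusted p = 0.284) and -2.93 ± 0.65 (limma voom adjusted p = 0.168). The B cell, dendritic and red cell markers given above were likewise lower in RT2 and RT3 than in WT3 and WT4. So were, in sum, the monocyte and macrophage markers and those of plasma cells, the latter at 302 and 343 RPM against 1470 and 1640 RPM. The plasma cell difference lay in Jchain, with 12 and 13 reads in RT2 and RT3 against 132 and 158 in WT3 and WT4. Xbp1 had 14 and 15 reads against 20 and 12, and Prdm1 had 3 and 9 against 1 and 3. CD4 T cell markers were higher there in sum, though Cd5 was lower, at -0.62 in the shallow set. Of the NK cell markers Eomes was higher, with 18 and 9 reads in RT2 and RT3 against 5 and 3 in WT3 and WT4. The part of these cell types in the shallow value was not tested. For Tet3, a test of the difference between the library sets gave -1.76 ± 0.74 for shallow minus deep (limma voom unadjusted p = 0.0441, adjusted p = 0.548), where 0.99% of genes were called. Without RT1 the combined fit called 0 genes in either direction, with 169 higher and 337 lower before adjustment, and Tet3 stood at -2.93 ± 0.84 (limma voom adjusted p = 0.345). On RPKM it was at -2.15 ± 0.66 (limma unadjusted p = 0.00896, adjusted p = 0.354). The Tet2 level of RT1 lay within the deep wild-type range. Since that level cannot check the genotype, the labels rest on the series' description.

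Tet1 (chromosome 10, 62804570 to 62908996, minus strand), a dioxygenase best known from embryonic stem and germ cells, was the TET gene with the lowest level. It stood at 1.47 and 1.25 RPKM in WT1 and WT2 and at 0.314 RPKM in RT1. Of the shallow libraries only WT3 held a read, which gave 0.544 RPKM. The deep values rest on 410, 376 and 103 reads, and RT1 was at 22.8% of deep wild type (interval 18.4% to 28.1%). Its log2 fold change was -2.06 ± 0.30 (limma voom adjusted p = 0.00851, all-library filter). This is in effect 1 RT library against 2 wild-type ones. Fitted alone with the same filter, the deep libraries gave -2.12 ± 0.45 (limma voom adjusted p = 0.324). Without RT1 the value was -0.74 (limma voom adjusted p = 0.999), and at the shallow depth no difference was detectable.

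RefSeq promoters of the TET genes (GRCm38.p6) are shown because Tet1 and Tet3 were lower in the deep RT library while Tet2 lay within wild type there. Each runs from 250 bases before to 50 after the annotated start, 5′ to 3′ on the gene's strand, with every CpG in capitals. Tet1 is chr10:62887275-62887574, Tet2 is chr3:133544341-133544640 and Tet3 is chr6:83441629-83441928, all on the minus strand. The windows of Tet1, Tet2 and Tet3 all lie inside the GENCODE spans given above, at starts downstream of the outermost one of each gene.
Tet1: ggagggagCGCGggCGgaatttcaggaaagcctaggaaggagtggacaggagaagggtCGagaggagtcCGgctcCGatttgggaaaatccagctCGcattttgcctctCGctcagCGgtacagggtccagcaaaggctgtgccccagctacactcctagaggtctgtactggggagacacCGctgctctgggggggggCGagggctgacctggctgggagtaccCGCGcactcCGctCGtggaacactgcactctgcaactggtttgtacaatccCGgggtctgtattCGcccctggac
Tet2: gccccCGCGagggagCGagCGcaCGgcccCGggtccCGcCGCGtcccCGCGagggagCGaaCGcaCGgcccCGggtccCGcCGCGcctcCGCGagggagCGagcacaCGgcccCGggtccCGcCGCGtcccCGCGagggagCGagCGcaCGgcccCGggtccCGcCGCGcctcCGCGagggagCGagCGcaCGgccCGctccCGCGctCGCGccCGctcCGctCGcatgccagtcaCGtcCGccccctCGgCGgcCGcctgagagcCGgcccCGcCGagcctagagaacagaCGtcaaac
Tet3: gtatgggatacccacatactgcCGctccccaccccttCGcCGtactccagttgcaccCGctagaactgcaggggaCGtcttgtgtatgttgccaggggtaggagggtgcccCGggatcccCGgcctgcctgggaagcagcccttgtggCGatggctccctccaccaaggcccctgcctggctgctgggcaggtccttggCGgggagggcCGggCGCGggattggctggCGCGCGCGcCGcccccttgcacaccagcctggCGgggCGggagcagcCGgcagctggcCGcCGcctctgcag
The motif counted was CG, which reads the same on both strands. Tet1 held 17 in 300 bases, Tet2 57 and Tet3 22, against a median of 7 over 32851 promoters. At least 17 stood in 31.4% of promoters, at least 22 in 23.1% and at least 57 in 0.152%. These are letters in a window, and the methylation of these sites was not measured.

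The makeup of the TET family followed from these levels. Tet3 gave 71.7% to 80.5% of the summed TET RPKM in the 4 wild-type libraries and 63.2% in RT1. Tet2 gave 16.4% to 27.0% in wild type and 34.6% in RT1. RT2 and RT3 held 2 TET reads each, too few for a share. The ratio of Tet3 to Tet2, in which the library total cancels, was 2.7 to 4.91 in wild type and 1.83 in RT1. The summed TET level was 27.5, 27.3, 17.4 and 10.3 RPKM across WT1 to WT4 and 14.5, 1.59 and 1.37 RPKM across RT1 to RT3. Relative to the summed DNMT level it was 1.04 and 1.06 in the deep wild-type libraries and 0.717 in RT1. In the shallow set it was 0.74 and 0.351 in WT3 and WT4 and 0.228 and 0.078 in RT2 and RT3. The ratios of RT2 and RT3 rest on the same 2 TET reads each and are too coarse to compare.

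**Figure D2:**
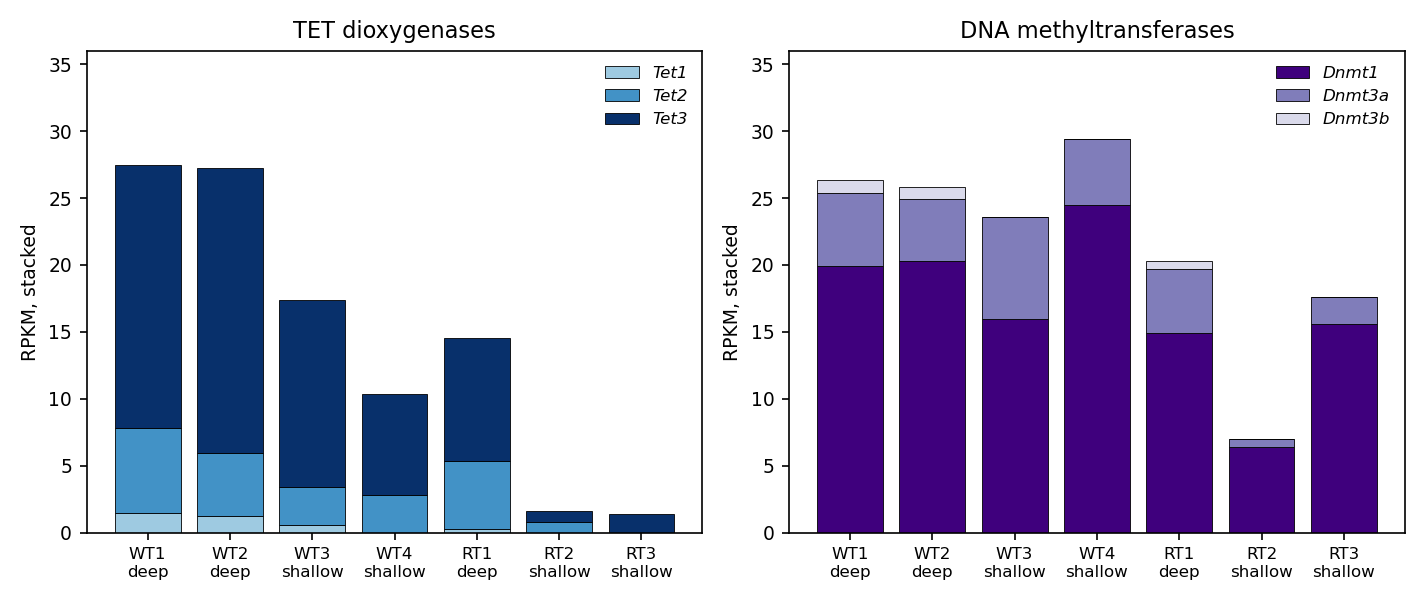
Stacked RPKM (y axis) of the TET genes (left) and DNMT genes (right) in each library (x axis, with its set). The TET stacks are shorter in RT than in WT within each set, 14.5 against 27.5 and 27.3 RPKM in the deep set, and Tet3 makes up most of each wild-type stack.

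Long genes as a class were lower in the shallow RT libraries, and several members are long. The gene models behind the values were 11999 bases for Tet3, 11775 for Tet2 and 16642 for Dnmt3a, against 7377 for Dnmt1 and 2771 for Idh1. Over the 437 genes of 10 to 17 kb, the shallow set had a median log2 fold change of -0.68 and the deep set one of -0.03. Over the 1798 genes of 2 to 4 kb it was 0.13 and -0.03. Genes of 10 to 17 kb held 7.62% and 7.87% of tested reads in WT3 and WT4, 4.48% and 6.07% in RT2 and RT3 and 11.9% to 13.3% in the deep libraries. Among the 437, ranked from the lowest fold change, Tet3 was number 8 in the deep and 14 in the shallow set, and Dnmt3a was number 190 and 32. After the smooth trend with length was removed from each library, which was added after seeing the data, Tet3 stood at -1.18 ± 0.17 over all libraries (limma voom adjusted p = 0.00289). In the deep set alone it was then -1.14 ± 0.20 (limma voom adjusted p = 0.0512) and in the shallow set alone -2.28 ± 0.94 (limma voom adjusted p = 0.196), so neither set passed alone, while 8.21% of genes were called lower over all libraries. Dnmt3a in the shallow set went from -2.18 to -1.27 (limma voom adjusted p = 0.419).

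**Figure D3:**
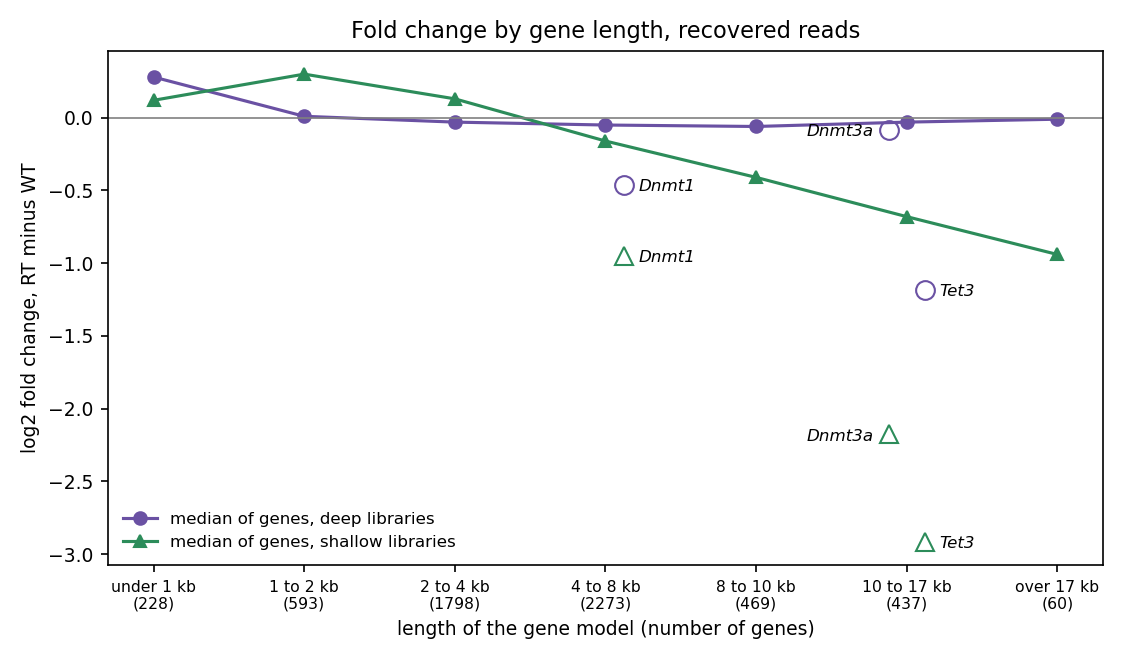
Median log2 fold change, RT minus WT, of all tested genes (y axis) by length of the gene model (x axis, number of genes in brackets), in the deep (circles) and shallow (triangles) libraries. Open symbols are single members. The shallow line falls to -0.68 at 10 to 17 kb while the deep line stays at -0.03, and Tet3 lies below both lines.

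Among the methyltransferases, Dnmt1 had the highest level per length. Dnmt1 (chromosome 9) stood at 19.9, 20.3, 16.0 and 24.5 RPKM across WT1 to WT4 and at 14.9, 6.41 and 15.6 RPKM across RT1 to RT3. It was the 1 member of 10 whose groups did not overlap in RPKM, against 4.57% of the 9605 genes with RT below WT throughout, and WT3 and RT3 lay close together. The means were 20.2 ± 3.50 RPKM (SD, n = 4) and 12.3 ± 5.11 RPKM (SD, n = 3). The log2 fold change by reads was -0.49 ± 0.16 and missed the threshold (limma voom adjusted p = 0.0672). On RPKM it was -0.74 ± 0.43 (limma adjusted p = 0.665). Without WT2 it passed, at -0.53 (limma voom adjusted p = 0.03). In the deep set RT1 held 72.9% of the wild-type level (interval 69.5% to 76.5%) and in the shallow set the pooled RT level was 54.1% (29.3% to 96.9%).

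Dnmt3a (chromosome 12), the main de novo methyltransferase of mature T cells, was not called in any fit of reads. It stood at 5.5, 4.64, 7.58 and 4.94 RPKM across WT1 to WT4 and at 4.83, 0.568 and 1.98 RPKM across RT1 to RT3. RT1 lay within wild type, and RT2 and RT3 lay below it. The shallow values rest on 15 and 10 reads in WT3 and WT4 and on 1 and 4 in RT2 and RT3. Its log2 fold change was -0.08 ± 0.24 in the deep set and -2.18 ± 0.80 in the shallow set (limma voom adjusted p = 0.906 and 0.078). The difference between the sets was -2.15 ± 0.90 (limma voom unadjusted p = 0.0437, adjusted p = 0.547). Over all libraries Dnmt3a was at -0.17 ± 0.24 (limma voom adjusted p = 0.663). Dnmt3b (chromosome 2), a de novo enzyme most active in early development, was low. It stood at 0.949, 0.87 and 0.575 RPKM in WT1, WT2 and RT1, from 90, 89 and 64 reads, and had 0 reads in every shallow library, which allows up to 27.1 to 31.2 RPM. Its log2 fold change of -0.63 ± 0.32 did not pass (limma voom adjusted p = 0.216).

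Uhrf1 (chromosome 17), which brings Dnmt1 to hemimethylated DNA, showed no difference beyond the spread. It stood at 3.45, 4.99, 3.95 and 7.72 RPKM across WT1 to WT4 and at 3.25, 0 and 7.72 RPKM across RT1 to RT3. Its groups overlapped, with RT3 level with the highest wild-type library. The log2 fold change by reads was -0.40 ± 0.25 (limma voom adjusted p = 0.301). Uhrf1 and Dnmt1 are known to be higher in dividing cells, so a list of replication genes stands beside them. Of 22 such genes 17 were tested, and 1 was called higher (Mcm6, a subunit of the replicative helicase, 0.75 ± 0.20, limma voom adjusted p = 0.0377) and 0 lower, where 9.71% of all tested genes were called higher and 8.42% lower. Their median log2 fold change was -0.06, against -0.03 over all genes tested. Summed over the list, wild-type libraries held 1040 to 1520 RPM, and RT libraries held 1170 to 1930 RPM.

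By the rule for likeness, the 3 genes whose RPKM pattern was most like that of Dnmt1, the member with the most shallow reads, were Mapre1, Chd8 and Xpo6. Their Pearson r was 0.992, 0.988 and 0.982 over the 7 libraries, with the mean of each library set removed, among 2209 genes. Mapre1, a microtubule end-binding protein, stood at 11.4, 12.1, 15.1 and 18.9 RPKM across WT1 to WT4 and at 8.82, 7.26 and 14.7 RPKM across RT1 to RT3. All 3 share the libraries and their depth with Dnmt1.

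Tdg (chromosome 10), the glycosylase that removes 5-formylcytosine and 5-carboxylcytosine, did not separate the groups. It stood at 4.33, 3.14, 0 and 9.18 RPKM across WT1 to WT4 and at 3.62, 1.76 and 6.12 RPKM across RT1 to RT3. The lowest and the highest value were both wild type. Its log2 fold change by reads was -0.03 ± 0.28 (limma voom adjusted p = 0.953).

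Idh1 (chromosome 1), the cytosolic and peroxisomal NADP-dependent enzyme, was the 1 member called higher, and this rests on RT1. It stood at 2.16, 2.32, 0 and 5.93 RPKM across WT1 to WT4 and at 6.62, 3.41 and 0 RPKM across RT1 to RT3. In the deep set the reads were 111 in WT1, 129 in WT2 and 400 in RT1, which put RT1 at 291% of wild type (exact 95% interval 247% to 342%). The shallow libraries held 0 to 2 reads. The log2 fold change was 1.45 ± 0.32 (limma voom adjusted p = 0.0305, all-library filter). It turned to -0.42 without RT1 (limma voom adjusted p = 0.999) and was uncalled without WT1, WT2 or WT3, at 1.38 to 1.44. The planned test gave 0.14 ± 0.84 (limma adjusted p = 0.974). RT1 also held 3050 RPM of 6 monocyte and macrophage markers, among them Lyz2 and Csf1r, against 624 to 948 RPM in WT1 and WT2 and 312 to 479 RPM in RT2 and RT3. In WT3 and WT4 these markers held 1260 to 1310 RPM, and their part in the Idh1 value was not tested.

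Idh2 (chromosome 7), the mitochondrial enzyme, was not different between the groups beyond their spread. It stood at 6.06, 9.05, 22.7 and 9.53 RPKM across WT1 to WT4 and at 8.92, 0 and 19.1 RPKM across RT1 to RT3. RT3 and WT3 were the highest libraries and RT2 was at 0, with 0 reads where WT4 had 3. The log2 fold change by reads was 0.18 ± 0.29 (limma voom adjusted p = 0.707), with 0.22 in the deep and -1.27 in the shallow set.

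**Figure D4:**
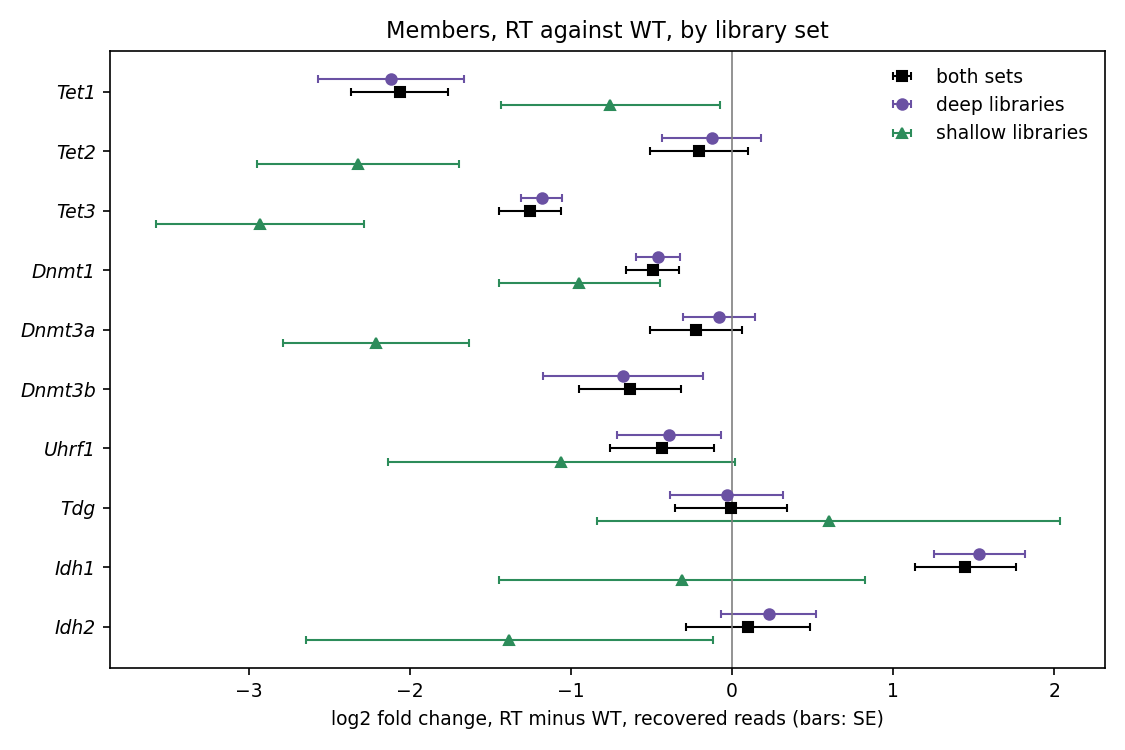
Log2 fold change of each member, RT minus WT (x axis, bars are standard errors), from recovered reads with the filter over all libraries. Squares are all libraries, circles the deep and triangles the shallow set. Tet1 and Tet3 lie left of 0 and Idh1 right of 0 in the combined fit, at -2.06, -1.25 and 1.45, the shallow values have the wider bars, and Dnmt3b has no shallow value.

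The genes around these enzymes were taken as 6 lists. In the recovered reads 18.1% of all tested genes were called in either direction, and the counts below are to be read against that share. Of 9 readers of methylated CpG 7 were tested and 0 were called by limma voom. The pair with the smallest p were Mbd2 at -0.29 ± 0.18 (limma voom unadjusted p = 0.146) and Uhrf2 at 0.24 ± 0.17, and the median was -0.02. Of 12 partners of the methyltransferases 7 were tested. Ezh2, a histone methyltransferase of Polycomb, rose by 1.01 ± 0.16 (limma voom adjusted p = 0.00505), and Suv39h1, a heterochromatin histone methyltransferase, fell, at -0.80 ± 0.20 (limma voom adjusted p = 0.0287). Ezh2 stood at 2.24, 2.55, 7.55 and 7.39 RPKM across WT1 to WT4 and at 5.05, 9.91 and 11.1 RPKM across RT1 to RT3. RT thus lay above WT within each set, which in the deep set 41.7% of all genes did in RPM. The median of the list was -0.30.

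The TET partner list had its largest change in Cxxc5, which encodes a CXXC zinc finger protein that binds unmethylated CpG. Cxxc5 stood at 4.98, 3.23, 3.7 and 3.62 RPKM across WT1 to WT4 and at 26.3, 25.0 and 14.5 RPKM across RT1 to RT3. Every RT library was above every wild-type library in RPKM, and the share of all genes that did so is not given here. The log2 fold change was 2.67 ± 0.25 (limma voom adjusted p = 0.000594). In the shallow set this rests on 1 and 1 reads against 6 and 4. Cxxc1, a CXXC protein of the SETD1 histone methyltransferase complexes, fell, at -0.56 ± 0.15 (limma voom adjusted p = 0.0361). Of 11 genes in the list 8 were in the table and 4 were tested, and their median was -0.11.

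Of 15 genes of base excision repair and active demethylation 6 were tested, and 2 rose and 0 fell, with a median of 0.44. Gadd45b, a stress-induced gene, rose by 1.43 ± 0.33 (limma voom adjusted p = 0.0213) and the DNA ligase gene Lig1 by 0.72 ± 0.20 (limma voom adjusted p = 0.0405). Of 20 genes of 2-oxoglutarate, succinate and fumarate metabolism 17 were in the table, 14 were tested and 0 were called by limma voom. Dlst and Sdhd had the smallest p, at 0.40 ± 0.15 (limma voom unadjusted p = 0.0269) and 0.65 ± 0.32, and the median was 0.00. Of 15 genes of the S-adenosylmethionine and folate cycles 10 were tested. Ahcyl1 (0.63 ± 0.18, limma voom adjusted p = 0.0405) and the mitochondrial folate enzyme Mthfd2 (0.60 ± 0.18, limma voom adjusted p = 0.0488) rose. Ahcyl2 fell, at -0.80 ± 0.22 (limma voom adjusted p = 0.0392, and 0.0532 once the trend with length was removed), and the median was -0.20. The planned limma test on RPKM called 0 genes of these lists, and 5 of 9605 genes in all, so its 0 says little about them. Without RT1 none of the 10 genes named here as called, Mcm6 included, passed, and Mthfd2 turned to -0.23 ± 0.64. The other 9 kept their direction, with Cxxc5 at 1.87 ± 1.28 and Ezh2 at 0.42 ± 0.63. Cxxc5 and Ezh2 kept their call without any other library. Suv39h1 lost it also without WT4 or RT3, Gadd45b also without RT3 and the other 6 also without 3 to 5 further libraries each.

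**Figure D5:**
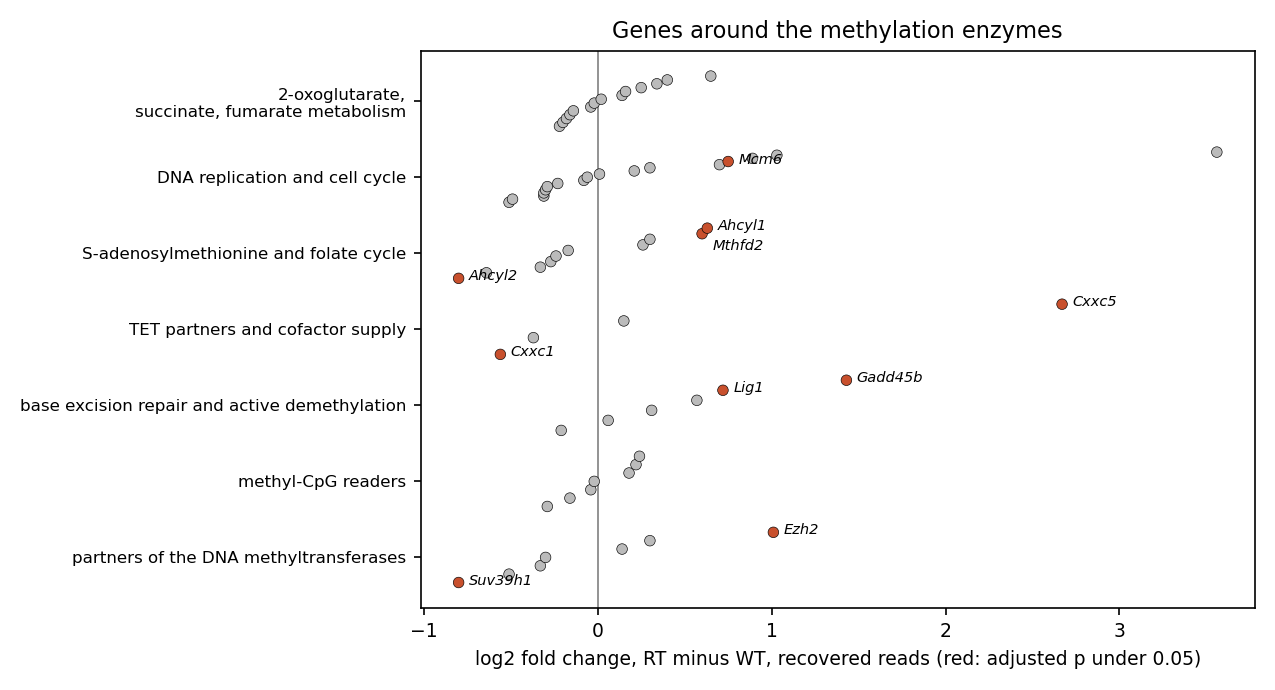
Log2 fold change, RT minus WT, from recovered reads (x axis) of each tested gene in 7 lists (y axis). Red points passed an adjusted p of 0.05 and are named, and grey points did not. Cxxc5 lies farthest from 0 among the called genes, at 2.67, and the grey point at 3.56 is Gins2, named after its values were seen, which had 0 reads in WT2.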

How the data were processed

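Each library was made from 150 ng of total RNA of sorted CD4+ splenocytes, per the labels' protocols. The authors deposited a table of RPKM, with 19589 gene symbols as rows and the 7 libraries as columns. The submitters' processing notes name build mm10. No aligner, counter or annotation is given in the sources used here. Gene positions are those of GENCODE M21 on the same build, which held 19409 symbols once.

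The planned test used limma 3.58.1 in R 4.3.3 on log2(RPKM + 1), with a trended prior and genotype alone, over genes with 3 or more libraries at 1 RPKM or above. Two-sided p-values were adjusted by the Benjamini-Hochberg method over all genes tested, with a threshold of 0.05. They measure only the spread between these samples. Fold changes on this scale understate the change of low genes.

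Reads were recovered by multiplying each RPKM value by the library total and the gene length. With GENCODE exon lengths, 78.9% to 83.9% of values under 100 reads came out whole within 0.01 reads. Otherwise a length was searched at which all libraries (2688 genes) or each set (840 genes) gave whole reads within 0.003 reads, and 28 genes were rounded. Where 3 or more of the libraries searched were above 0, the shortest such length was taken, so reads that share a divisor would be understated. With fewer, the length nearest to the GENCODE one was taken where GENCODE gave one. Reads in genes came to 47.6% to 51.5% of each deep total and 88.0% to 91.0% of each shallow total. The fit of these reads by limma voom had a genotype and a library set term and took genes with 10 or more reads in the shallow libraries together. Limits of a count of 0 take 3 reads.

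The 10 members, the lists and the tests were chosen with earlier results of these data known. From each list the text names the genes called by reads, at most 5 a direction, or the 2 with the smallest p where none was called. For the member with the most shallow reads it names the 3 genes most like it, among those with 40 or more shallow reads. Pathway list symbols absent from the table under the name used (6 of them) were not analysed here. The scripts were tested on simulated counts with the sizes of these libraries. There the planned test called 0 of 100 genes changed 2-fold and 0 of 100 changed 4-fold. The fit of reads called 48 of 97 and 89 of 91.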

Additional observations from a re-analysis of the deposited data

How the results depend on the processing

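Over 110 alternative values of the 8 members fitted on RPKM, 96 kept their direction and side of the threshold, 13 turned and 1 passed. Of 90 values from recovered reads 81 held, 7 turned, 1 no longer passed and 1 newly passed, and of 39 with the filter over all libraries 29 held, 3 turned and 7 no longer passed. The cause was not tested. The RPKM test called 4 genes higher and 1 lower. It called 0 and 0 with a pseudocount of 0.1, without the filter, with the replicate block and with WT3 and WT4 averaged, 21 and 5 with a library set term, and 7 and 5 with RPKM scaled to a sum of 1000000. The fit of recovered reads called 569 and 493. Leaving out 1 library at a time gave 0 to 10 higher and 0 to 5 lower on RPKM, with 10 and 5 without RT1 and 0 without WT2, WT3, RT2 or RT3. The reads gave 240 and 129 in the deep libraries alone and 196 and 271 in the shallow ones alone. Leaving out 1 library gave 0 to 773 higher and 0 to 695 lower, with 0 without RT1 and 354 and 313 without RT3. Tet3 kept its call in reads without each library other than RT1, with the trimmed mean of M values (-1.29), a term for sex (-1.20) and WT3 and WT4 summed (-1.24).

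The log2 fold change of Tdg on RPKM was -0.15 with WT3 and WT4 averaged, -0.03 in reads, and -0.44 to 0.68 with 1 library left out. That of Idh1 was -0.02 with a pseudocount of 0.1, -0.1 when scaled, -0.1 when averaged, and -0.48 to 0.99 with 1 library left out. Idh2 was 0.18 in reads and -1.87 to 0.29, and Uhrf1 -1.5 to 0.06, with 1 library left out. In reads, Tdg was 0.61 in the shallow libraries alone, 0.03 with the length trend removed and -0.31 to 0.58 with 1 library left out. Idh2 was -1.27 in the shallow libraries alone and -1.39 to 0.39 with 1 left out. With the filter over all libraries, Dnmt3b ranged from -0.73 to 0.04 and Idh1 from -0.42 to 1.52, and Idh1 was -0.31 in the shallow libraries alone. The Tet2 difference ranged from -1.89 to -0.59, with exact permutation p of 0.133 to 0.533.

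Deviations from the group mean of log2(RPKM + 1) correlated at 0.432, -0.179 and 0.184 between the WT and RT libraries of numbers 1 to 3. Library set was not removed, and pairs within a set were all positive and pairs across sets all negative. WT2 is deep and RT2 shallow, so these values cannot show whether the numbers pair the mice. The main fits did not use the numbers as pairs. With the replicate block, the reads called 615 and 544 genes and Tet3 stood at -1.22 (limma voom adjusted p = 0.00853). A count of 0 allows up to 31.2 RPM in RT2, above the deep wild-type level of Idh1 and Dnmt3b and near that of Uhrf1, so the shallow libraries could not show their loss.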

Other observations

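The other members' RefSeq promoters held 20 CpG in the same 300-base window for Idh2, 23 for each of 2 entries of Idh1, 26 for Tdg and 30 for Dnmt3b. Genes with several annotated starts differed among them, with 2, 12 and 33 CpG at Dnmt1, 46, 47 and 18 at Dnmt3a and 12 and 33 at Uhrf1. At Tet1 the gene length behind the values was 15065 bases in the deep and 15457 bases in the shallow libraries. For Tet2 and Tet3 it was 11775 and 11999 bases, against 16870 and 16695 bases over all GENCODE exons. The ratio of Idh2 to Idh1 RPKM was 2.81, 3.89 and 1.61 in WT1, WT2 and WT4 and 1.35 in RT1. RT2 had 0 Idh2 reads, and WT3 and RT3 had 0 Idh1 reads.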
